A study of Drosophila melanogaster with 12 samples.

Results

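The genes described here encode enzymes of the citric acid cycle, the mitochondrial pathway that oxidises acetyl-CoA and hands the electrons to the respiratory chain. Of the 8 genes asked for (kdn, mAcon1, Idh, Scsalpha1, ScsbetaG, ScsbetaA, Fum1 and Mdh2), 5 were matched by name to 6 of the 14010 probe sets, each with a single gene symbol, out of 10843 genes named in this way. A probe set is a group of short oligonucleotides that stands for a transcript on the array. No probe set here was paired with kdn (citrate synthase), Fum1 (fumarase) or Mdh2 (mitochondrial malate dehydrogenase), and these 3 are not analysed here. Probe sets were matched to the genes by name alone, but the genes themselves were chosen with earlier results of these data known.

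RNA came from the heads of Drosophila melanogaster adults of 3 lines, named BG02514, BG02257 and Canton S B, with both sexes of each line and 2 arrays for each of the 6 groups. Of these, Canton S B is wild type, and the BG lines come from a gene-trap collection made with the transposon P{GT1}; the sources used here do not say where it sits in BG02514 and BG02257. The labels name no treatment. All lines were raised at the same time at 25 °C, with 12 h of light a day and 70% humidity, flies were 5 to 7 days old, and a sample pooled 100 heads. The labels give both BG02257 male arrays the replicate number 1, so they are called BG02257 male 1a and 1b, and whether they are repeat arrays of a single pool is not stated. The labels call the 2 samples of a group replicates and do not say that they came from separate cultures. The p-values therefore measure the spread between these pools, and for BG02257 males perhaps only that between 2 arrays of 1 pool.

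In the cycle, aconitase turns citrate into isocitrate, which is oxidised to 2-oxoglutarate and then to succinyl-CoA. Succinyl-CoA synthetase converts succinyl-CoA to succinate and makes a nucleoside triphosphate in the same step. In mammals that enzyme joins a common alpha subunit to either of a pair of beta subunits, which decide whether ATP or GTP is made, and the fly genes carry the corresponding names: Scsalpha1 for the alpha subunit, ScsbetaA for the ATP-forming and ScsbetaG for the GTP-forming beta subunit. The brain and the photoreceptors of the eye use much energy, which is drawn largely from this pathway and the respiratory chain.

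Levels are given as Signal, a linear intensity that the authors had scaled to a common trimmed mean on every array, and median Signal ranged from 182.9 to 206.1 between arrays. Signals of different probe sets are not comparable with each other, so each gene was compared only with itself. Of the 6 probe sets, 5 passed the filter on dim probe sets, a mean Signal of at least 128.3, and each of the 5 genes had 1 of them. Of 10 listed genes of neurons and photoreceptors 7 had a probe set, and their summed Signal was 118674 to 151127 for Canton S B, 118979 to 131937 for BG02514 and 121388 to 138014 for BG02257. That sum is led by the photoreceptor arrestins Arr1 and Arr2. BG02257 male 1a stood apart from the other male arrays, with the yolk protein gene Yp1 at 6747, where they had 172 to 496. Of the listed genes of neurons and photoreceptors, brp was lower, at 9.8 (127 to 209 in the other males). Also lower were elav at 179 (272 to 681), nSyb at 1315 (2107 to 2862) and Arr2 at 52612 (55717 to 64610). The rest of the list did not follow: trp was higher, at 13784 (9818 to 12663), and Arr1 and inaC lay within the range of the other males. The ScsbetaG difference is also given without this array. In bulk tissue, fewer cells of a type and less RNA per cell cannot be told apart.

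ScsbetaG was the 1 gene of the 5 whose RNA passed the test between lines. Its Signal was 743 and 656 in Canton S B females and 711 and 710 in Canton S B males. In BG02514 it was 394 and 463 in females and 499 and 566 in males. In BG02257 it was 361 and 332 in females and 382 and 403 in males. All 4 Canton S B arrays therefore lay above all 8 arrays of the insertion lines. The share of all probe sets with Canton S B apart from both other lines was not counted, and shares for single pairs of lines are given below. The ranges of BG02514 and BG02257 overlapped by a single array of each, BG02514 female 1 lying below BG02257 male 1b.

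**Figure D1:**
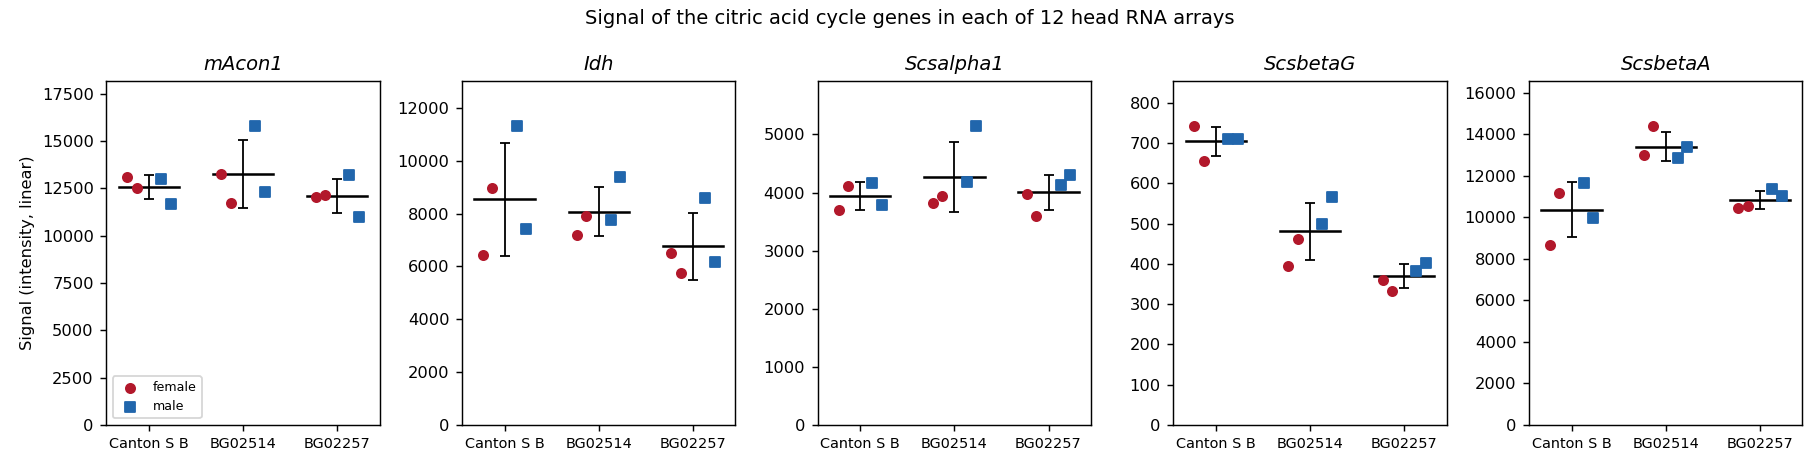
Signal (linear intensity, vertical axis from 0) of mAcon1, Idh, Scsalpha1, ScsbetaG and ScsbetaA in 3 lines, with females as circles and males as squares, a line at the mean and bars of 1 SD over the 4 arrays of a line. The ScsbetaG points of Canton S B, between 656 and 743, lie above all others, and the ScsbetaA points of BG02514 lie above those of both other lines.

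The mean Signal of ScsbetaG was 705 ± 36.0 for Canton S B, 480 ± 71.7 for BG02514 and 369 ± 30.5 for BG02257 (SD, n = 4 each). Against Canton S B, BG02257 was 1.91-fold lower, a difference of −0.94 ± 0.13 on the log2 scale (SE, 95% interval −1.23 to −0.65). This passed the limma test over all 8380 tested probe sets (adjusted p = 0.0265), in which 0.0955% of probe sets were called, 0.0835% as lower in BG02257. ScsbetaG had the fifth smallest p of that comparison, and the joint test for any difference between the 3 lines called it as well (F = 25.63, adjusted p = 0.0343; 0.418% of all probe sets called). Taken apart, the sexes gave −1.01 ± 0.19 in females and −0.86 ± 0.19 in males, and neither contrast of 2 against 2 arrays was called (limma adjusted p of 0.221 and 0.656). The call was lost with the same-numbered BG02257 male arrays averaged (adjusted p = 0.0799), with no variance trend (0.0887), with only these 2 lines in the model (0.182) and on linear Signal (0.0504). With 1 array left out in turn the difference stayed between −0.98 and −0.89, but the call held in 2 of 12 fits only, without BG02257 male 1b and without Canton S B female 2. It was lost in the other 10, among them the fit without BG02257 male 1a (−0.92, limma adjusted p = 0.0954), and the joint test kept its call in 1 of 12, without BG02257 male 1b.

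Against the same Canton S B arrays, which both comparisons share, BG02514 had −0.56 ± 0.13 for ScsbetaG (95% interval −0.85 to −0.27). This did not pass the test (adjusted p = 0.176, with 0.179% of probe sets called), although the arrays did not overlap, as was so for 4.8% of all probe sets in that comparison and for 2.2% between BG02257 and Canton S B. Its log2 difference was −0.71 ± 0.19 in females and −0.42 ± 0.19 in males. Between the insertion lines, BG02257 had −0.37 ± 0.13 (95% interval −0.66 to −0.08, adjusted p = 0.369, with 0.334% of probe sets called). At an unadjusted p under 0.05, 2 of the 5 genes (ScsbetaG and ScsbetaA) passed between BG02514 and Canton S B, where 8.02% of all probe sets did, and the same 2 between the insertion lines, where 9.99% did. In the joint test these 2 passed as well (8.33% of all), and between BG02257 and Canton S B ScsbetaG alone (4.01%). The levels thus ran from Canton S B through BG02514 to BG02257, and neither pair of neighbours in that order passed the threshold, while its ends did. No probe set among the 8380 had all arrays of Canton S B above all of BG02514 and these above all of BG02257 (0.0% of probe sets).

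The other ScsbetaG probe set was dim. Its Signal was between 17.7 and 147 over the 12 arrays, with a mean of 65.6, under the filter. Its Canton S B arrays, at 17.7 to 92.8, overlapped those of BG02514 (33.0 to 147) and BG02257 (29.2 to 102). The line difference thus rests on the brighter probe set alone, and the dim one was not tested.

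ScsbetaA, the other beta subunit gene, was highest in BG02514. Its Signal was 12995 and 14407 in BG02514 females and 12838 and 13371 in males. Canton S B had 8689 and 11190 in females and 11642 and 9975 in males. BG02257 had 10467 and 10529 in females and 11345 and 11013 in males. All 4 BG02514 arrays lay above the 8 arrays of the other lines, while Canton S B and BG02257 overlapped. Of all probe sets, 5.69% had no overlap, in either direction, between BG02514 and BG02257, and 4.8% between BG02514 and Canton S B. The share with BG02514 apart from both other lines was not counted.

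The mean of ScsbetaA was 13402 ± 706 in BG02514, 10374 ± 1326 in Canton S B and 10839 ± 417 in BG02257 (SD, n = 4 each). BG02514 had a log2 difference of 0.38 ± 0.10 from Canton S B (95% interval 0.15 to 0.61), 1.3-fold, which was not called (limma adjusted p = 0.288). It was 0.47 ± 0.15 in females and 0.28 ± 0.15 in males. BG02257 against BG02514 gave −0.31 ± 0.10 (95% interval −0.54 to −0.08, adjusted p = 0.358), and BG02257 against Canton S B gave 0.07 ± 0.10 (95% interval −0.16 to 0.30). The joint test over the 3 lines did not call it either (F = 7.31, adjusted p = 0.342).

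**Figure D2:**
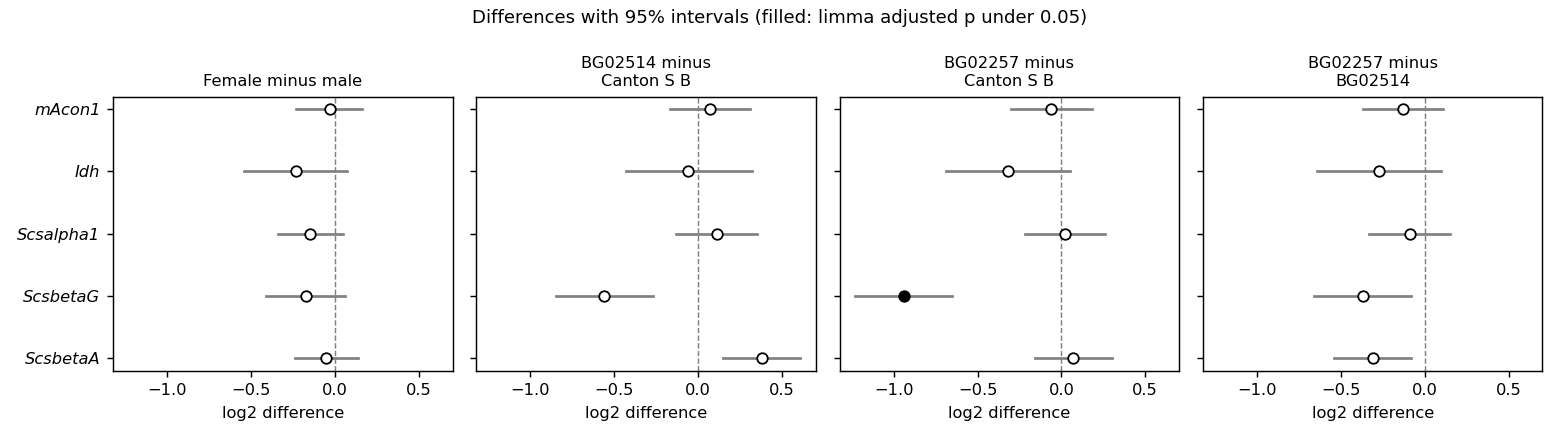
Log2 differences of the 5 genes (horizontal axis) between the sexes and between pairs of lines, with 95% intervals from the limma model; filled points have an adjusted p under 0.05. The filled point is ScsbetaG in BG02257 against Canton S B at −0.94, and the intervals of mAcon1, Idh and Scsalpha1 include 0 in all 4 panels.

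The beta subunit genes were also set against each other within an array. The log2 Signal of ScsbetaA minus that of ScsbetaG was expressed relative to the Canton S B mean, so that it shows a change between lines and not the relative amount of the 2 RNAs. Canton S B arrays lay between −0.32 and 0.22, BG02514 arrays between 0.69 and 1.17, and BG02257 arrays between 0.90 and 1.12. The insertion lines overlapped each other, both are set against the same Canton S B mean, and how often other pairs of genes differ as much was not examined. The means were 0.94 ± 0.23 in BG02514 and 1.01 ± 0.09 in BG02257 (SD, n = 4 each), a shift of 1.92-fold and 2.01-fold. In BG02257 ScsbetaG made up nearly all of it, with −0.94 against 0.07 for ScsbetaA, and in BG02514 both genes contributed, with −0.56 and 0.38. This measure was chosen after the values of both genes were seen and has no test.

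**Figure D3:**
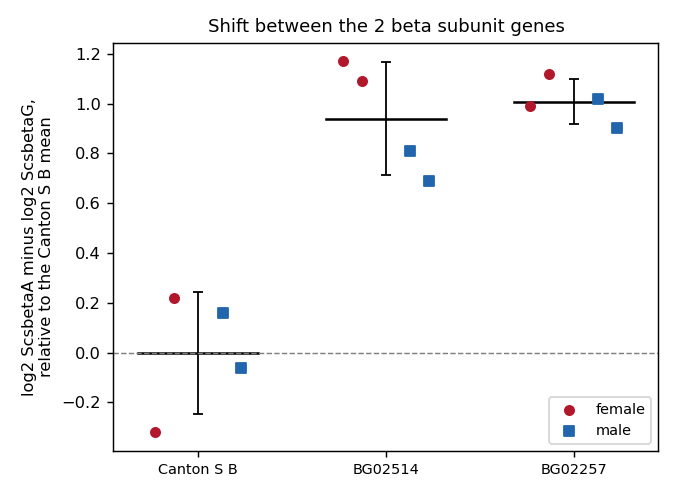
Log2 Signal of ScsbetaA minus log2 Signal of ScsbetaG in each of 12 arrays (vertical axis), relative to the mean of the Canton S B arrays, with females as circles, males as squares and the mean and 1 SD of each line. The BG02514 arrays, from 0.69 to 1.17, and the BG02257 arrays, from 0.90 to 1.12, all lie above the highest Canton S B array at 0.22.

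Scsalpha1, the alpha subunit that in mammals joins either beta subunit, was not called in any comparison. Its Signal was 3695 and 4111 in Canton S B females and 4170 and 3784 in males. BG02514 had 3814 and 3941 in females and 4175 and 5148 in males, and BG02257 had 3973 and 3600 in females and 4138 and 4298 in males. The 3 lines overlapped, with BG02514 male 2 the highest array. BG02257 differed from Canton S B by 0.02 ± 0.11 on the log2 scale (95% interval −0.22 to 0.26), an interval that does not reach the size found for ScsbetaG, and BG02514 by 0.11 ± 0.11 (−0.13 to 0.35).

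mAcon1 encodes the mitochondrial aconitase, an iron-sulphur enzyme. It was among the steadier transcripts: its Signal was 13102 and 12497 in Canton S B females and 12999 and 11683 in males. BG02514 had 13275 and 11717 in females and 15800 and 12303 in males, and BG02257 had 12045 and 12140 in females and 13212 and 11009 in males. All lines overlapped, and BG02514 male 1 was the highest array. The log2 difference was 0.07 ± 0.11 (95% interval −0.17 to 0.31) for BG02514 and −0.06 ± 0.11 (−0.30 to 0.18) for BG02257, each against Canton S B. The pooled SD between arrays of a group was 0.15 on the log2 scale for mAcon1, 0.12 for Scsalpha1, 0.11 for ScsbetaG and 0.13 for ScsbetaA, against a median of 0.28 over all tested probe sets.

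Idh encodes the isocitrate dehydrogenase that uses NADP, and the NAD-dependent enzyme of the cycle proper is made of the products of Idh3a, Idh3b and Idh3g. Idh was the most variable of the 5, with a pooled SD of 0.28. Its Signal was 6418 and 8982 in Canton S B females and 11318 and 7424 in males. BG02514 had 7205 and 7904 in females and 7767 and 9378 in males, and BG02257 had 6491 and 5751 in females and 8594 and 6177 in males. The lowest and highest arrays of Canton S B differed 1.76-fold, and the lines overlapped. BG02257 had −0.32 ± 0.17 against Canton S B (95% interval −0.69 to 0.05, adjusted p = 0.999) and BG02514 had −0.06 ± 0.17 (−0.43 to 0.32). These intervals are wider than those of the other 4 genes. Between the insertion lines, BG02257 minus BG02514 gave −0.27 for Idh (95% interval −0.64 to 0.10), −0.13 for mAcon1 (−0.37 to 0.11) and −0.09 for Scsalpha1 (−0.33 to 0.15). With the beta subunit genes all 5 estimates of that comparison were below 0, with a median of −0.27 against 0.01 over all probe sets, of which 47.8% were below 0. Values of that comparison for other genes of the pathway are given below.

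Between the sexes none of the 5 genes was called (limma), where 2.84% of all probe sets were; none had an unadjusted p under 0.05 either, where 15.0% did. All 5 estimates lay below 0, that is lower in females, with a median of −0.15 on the log2 scale against 0.00 over all tested probe sets, of which 49.8% lay below 0. Of 13 other tested genes of the cycle, described below, 8 lay below 0, with a median of −0.03. The female minus male differences were −0.23 ± 0.14 for Idh, −0.17 ± 0.11 for ScsbetaG, −0.15 ± 0.09 for Scsalpha1, −0.05 ± 0.09 for ScsbetaA and −0.03 ± 0.09 for mAcon1 (SE). Female and male arrays overlapped for all 5 genes, while 2.96% of probe sets had no overlap. Female Signals of Scsalpha1 ran from 3600 to 4111 with a median of 3877, and male Signals from 3784 to 5148 with a median of 4172. The upper bounds of the 95% intervals were 0.05 to 0.16 and the lower bounds −0.54 to −0.23.

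None of the 5 showed a sex difference that depended on line (interaction adjusted p of 1 each; 0.0% of all probe sets called by limma, and 2.8% at an unadjusted p under 0.05). For ScsbetaG, females minus males gave −0.02 for Canton S B, −0.32 for BG02514 and −0.18 for BG02257, each ± 0.19 (SE). For ScsbetaA it was −0.13, 0.06 and −0.09, each ± 0.15. In the heads sampled, head fat body genes that respond to sex differed in both directions. Of 8 listed, 7 had a probe set; females were called higher at 4, among them Yp1 (7.33 on the log2 scale), and males at 3, among them Obp99b (−4.48). Their summed Signal, led by the yolk protein genes, was 214855 to 261686 in females and 10106 to 27177 in males. The part of this RNA in the small differences of the cycle genes was not tested.

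The rest of the cycle was examined through a list of 27 further subunits, isoforms and paralogues, of which 24 had a probe set and 13 passed the filter. None of the 13 was called in any of the 6 comparisons. Between the insertion lines, BG02257 minus BG02514 was below 0 for 7 of the 13, with a median of −0.01. Their median log2 difference was 0.03 between BG02257 and Canton S B, with a range of −0.08 to 0.16, and 0.04 between BG02514 and Canton S B, with a range of −0.35 to 0.34; over all probe sets the median was −0.01 in both. The genes named next were picked, after their values were seen, for their place on either side of succinyl-CoA synthetase. The subunits of the NAD-dependent isocitrate dehydrogenase had −0.02 (Idh3a), 0.10 (Idh3b) and 0.08 (Idh3g) in BG02257. Those of succinate dehydrogenase, the next enzyme after succinyl-CoA synthetase, had 0.06 (SdhB), 0.03 (SdhC) and 0.02 (SdhD), and Ogdh, of the 2-oxoglutarate dehydrogenase complex before it, had 0.16. None of these 7 reached the size of the ScsbetaG difference.

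The other 11 genes of that list were dim, with mean Signals of 9.62 to 63.2. They include mAcon2, Scsalpha2, SdhAL, SdhBL, Fum2 and Fum3, paralogues of cycle genes. Of 8 listed genes known from testis, all with a probe set, 3 passed the filter, and none was called between the sexes (−0.23 for Mst87F, −0.40 for Mst84Da and −0.83 for Mst98Ca). The summed Signal of the 8 was 540 to 1054 in Canton S B, 479 to 853 in BG02514 and 496 to 886 in BG02257.

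Of 17 genes of the routes into and out of the cycle, 14 had a probe set and 13 were tested. In this list 2 of 13 genes were called between the sexes, where 2.84% of all probe sets were, both lower in females, and none between lines. Got2, the mitochondrial aspartate aminotransferase, had Signals of 5936 and 6496 in Canton S B females against 10188 and 8220 in males, 7534 and 8458 against 10794 and 11351 in BG02514, and 6131 and 5096 against 9201 and 7942 in BG02257. Females were lower within every line, and the difference was −0.55 ± 0.09 on the log2 scale (SE, limma adjusted p = 0.0098). Pepck1, the phosphoenolpyruvate carboxykinase that draws oxaloacetate from the cycle, had Signals of 7485 and 5248 in Canton S B females against 7532 and 8462 in males, 9046 and 9883 against 10545 and 10797 in BG02514, and 5380 and 6286 against 9997 and 11810 in BG02257. Females were again lower in every line, by −0.48 ± 0.10 over the lines (limma adjusted p = 0.0359). By line it gave −0.90 for BG02257, −0.35 for Canton S B and −0.17 for BG02514, and with 1 array left out the call held in 2 of 12 fits, without BG02257 male 1a (−0.52) and without Canton S B female 1 (−0.56). Over the list, females lay lower, with 11 of 13 estimates below 0 and a median of −0.13, where 49.8% of all probe sets lay below 0.

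**Figure D4:**
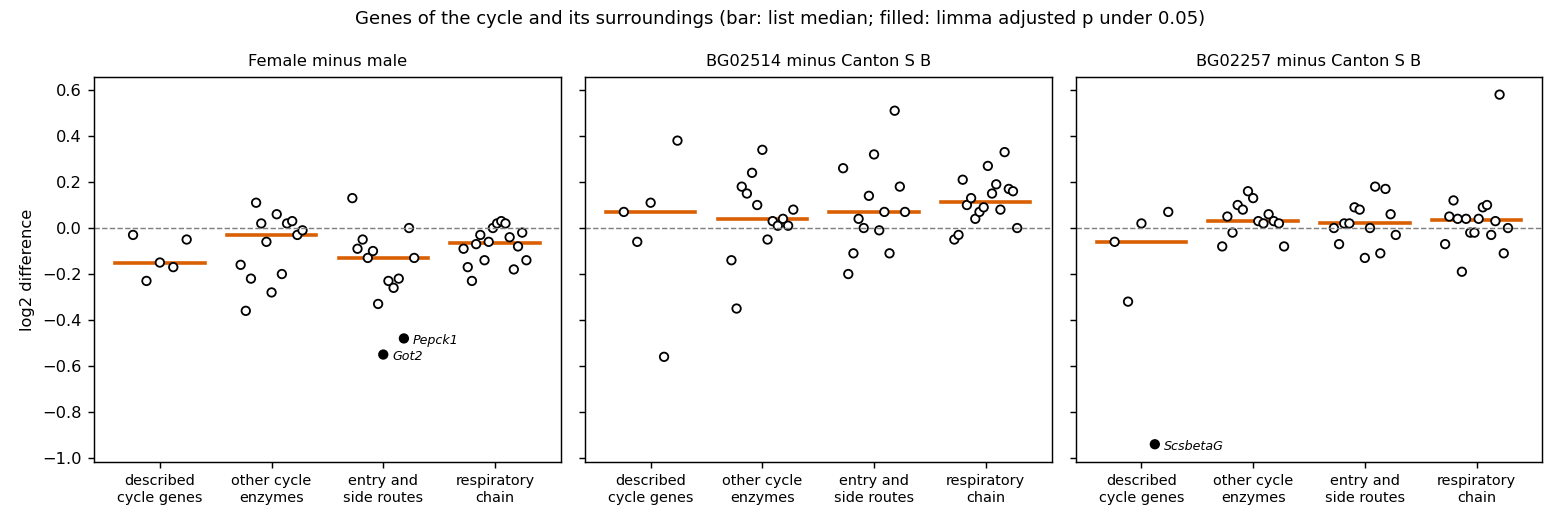
Log2 differences (vertical axis) of the tested genes of 4 lists in 3 comparisons; each point is a gene, the bar is the list's median and filled points have a limma adjusted p under 0.05. Got2 and Pepck1 are the filled points between the sexes, and ScsbetaG at −0.94 lies below all other points in BG02257 against Canton S B.

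Nuclear genes of the respiratory chain, which take up the electrons that the cycle yields, were tested for 16 of 20 listed members, and none was called in any comparison. Their median was 0.03 between BG02257 and Canton S B, 0.12 between BG02514 and Canton S B, with 13 of 16 above 0, and −0.06 between the sexes, with 13 of 16 below 0. With quantile normalization the last value was −0.18, with 15 of 16 below 0. In the main fit, BG02257 minus BG02514 had a median of −0.09, with 13 of 16 below 0. For the genes of entry and side routes that comparison gave −0.02, with 8 of 13 below 0. The member with the smallest p in BG02257 was ATPsynC, a subunit of the ATP synthase rotor, at 0.58 ± 0.22 (adjusted p = 0.999). Its BG02257 Signals were 11809 and 8048 in females and 12295 and 5449 in males, so that BG02257 male 1b lay below the others of its line, and another of its probe sets gave −0.32. Among the genes of entry and side routes, those with the smallest p in BG02257 were Men-b, a malic enzyme (0.18 ± 0.11), and Pepck1 (0.17 ± 0.13), with a limma adjusted p of 0.999 for both. Another tested probe set of Men-b gave −0.05.

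Markers of other tissues were summed beside the ScsbetaG result. Of 12 listed genes of muscle, a tissue rich in mitochondria, 8 had a probe set, and their summed Signal was 32611 to 43657 for Canton S B, 35618 to 47007 for BG02514 and 24293 to 47653 for BG02257. Gut markers (7 of 8 genes) were at 911 to 5541, 1981 to 5290 and 656 to 3586 in the same order of lines, with medians of 1419, 4229 and 3036. All 5 tested gut genes had estimates above 0 against Canton S B in both insertion lines, with a median of 1.30 on the log2 scale in BG02514 and 0.45 in BG02257, and none was called. Glial markers overlapped in all lines (10093 to 14814, 12090 to 17479 and 11086 to 15650, 3 of 3 genes). The glial sum is led by Gs2 and the muscle sum by Mlc2, so each mostly follows 1 gene. Hemocyte markers overlapped as well, at 3391 to 9056, 5421 to 6433 and 3727 to 8214 (5 of 6 genes). The part of other cell types in the line differences of ScsbetaG and ScsbetaA was not tested.

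By position, Idh, Scsalpha1 and ScsbetaG lie on chromosome arm 3L, mAcon1 on 2L and ScsbetaA on 3R. The Signals of the 10 tested genes nearest to ScsbetaG in gene order, 5 on either side, were looked at after its values were seen. None of the 10 was called by the joint test over lines, where 0.418% of all probe sets were, and their smallest limma adjusted p was 0.68. At so low a share, 10 genes would mostly give no call. Their differences from Canton S B lay between −0.34 and 0.34 in BG02257 and between −0.32 and 0.18 in BG02514. The nearest tested genes on either side, sinu and Sras, had −0.19 and −0.07 in BG02257.

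Over the 12 arrays, the genes whose log2 Signal followed ScsbetaG most closely among 6773 tested genes were stops (Pearson's r = 0.89), CG8004 (0.86), se (0.82), Meics (0.82) and Alp4 (0.81). Of these, CG8004, se and Meics lie on arm 3L, as ScsbetaG does, and stops and Alp4 on 3R. The share of all tested genes on each arm was not counted, and the part of position was not tested. Over the 10 pairs of the 5 cycle genes themselves the median r was 0.22, against 0.0 over all pairs of tested probe sets. It ran from −0.25, for ScsbetaG with ScsbetaA, to 0.55, so their mean is not a profile that all 5 share. The genes closest to the mean of the 5 cycle genes, each standardised, were CG9331 (0.92), Mthfs (0.92), CG9485 (0.88), Jhbp11 (0.87) and CG6503 (0.86). These are the highest of many values over arrays that share lines, sexes and scaling, and they are a description without a test.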

How the data were processed

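Head RNA was hybridised to 12 Affymetrix arrays. The deposited values are linear intensities, per the labels the Signal of Microarray Suite 5.0. GCOS, with no version, is named in the submitters' processing notes. The authors' values already had 1 common 2% trimmed mean per array.

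After 44 control probe sets were left out, a platform annotation gave 1 gene symbol to 12442 of 13966 probe sets, several to 327 and none to 1197, and 12393 were matched to RefSeq gene records. The assembly of those records, Release 6 plus ISO1 MT, served for names, chromosome arms and gene order only, since the files name no build. Arrays were rescaled to the common trimmed mean and put on a log2 scale without a pseudocount. The test covered probe sets at or above the 40th percentile of mean Signal, 128.3: 8380 probe sets of 6778 genes. All 12 arrays entered 1 model of 6 group means, fitted with limma 3.58.1 in R 4.3.3 (contrasts, eBayes with a variance trend, degrees of freedom 6 residual and 5.09 prior). Tests were two-sided, and p was adjusted by Benjamini-Hochberg across all 8380, with calls at 0.05. The number of arrays limits the precision.

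The brightest probe set represented a gene that had more than 1. The text names all 8 cycle genes, each gene of 3 pathway lists that was called, the 3 of those lists with the smallest p in a comparison that called a cycle gene, and the 5 genes most like ScsbetaG and most like the mean of the cycle genes. In the joint test over lines those 3 were Pepck1 (adjusted p = 0.306), Got2 (0.308) and ATPsynC (0.638). The genes and lists were chosen with earlier results of these data known. Replicate numbers were not taken to pair the arrays: over 10 pairs of groups the correlation of same-numbered deviations was −0.24 to 0.27, above 0.1 in 1. BG02257 males were left out of this check, since both arrays carry number 1. With 2 arrays per group, low correlations cannot exclude a pairing. On simulated arrays of 8380 probe sets, the test of BG02257 against Canton S B found 73% of the log2 changes of size 1, 98% of those of size 2, and made 7 false calls. The simulation held many more changed probe sets than the 8 called in the real comparison. That makes the adjusted threshold easier to pass, so these shares can be higher than in the real data. Promoter and protein sequences were not used here.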

Additional observations from a re-analysis of the deposited data

How the results depend on the processing

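Among the 5 tested cycle genes, the counts called between the sexes, between BG02514 and each of the other lines, and for the sex-by-line interaction stayed at 0 under every alternative run. Between BG02257 and Canton S B the count was 1, ScsbetaG, and fell to 0 with the BG02257 male arrays averaged (adjusted p = 0.0799), no variance trend (0.0887), only these 2 lines in the model (0.182) and the two-way model on linear Signal (0.0504), while the log2 difference stayed at −0.94 in the first 3. With the replicate block the count was 0 (−0.93, limma adjusted p = 0.0705). Leaving out 1 array gave counts of 0 to 1. The count stayed at 1 with a pseudocount of 16, quantile normalization, and no filter or a stricter one. It also stayed at 1 with Signal as deposited, which already had the common trimmed mean, so that rescaling changed almost nothing. The mean over probe sets kept it too, but took only probe sets past the filter. For ScsbetaG that was the bright probe set alone, so the dim one did not enter. The count of the joint test over lines fell from 1 to 0 with the male arrays averaged, no variance trend, the replicate block and the linear model, and was 0 to 1 with 1 array left out; the limma adjusted p ranged from 0.023 to 0.121 over 22 alternatives. No direction reversed. Over 23 alternatives the adjusted p was 0.106 to 0.492 for ScsbetaG and 0.144 to 0.762 for ScsbetaA between BG02514 and Canton S B. Got2 kept its call between the sexes in 20 of 22 alternatives and Pepck1 in 6 of 22. The averaging, the 2-line model and the fits with an omitted array use fewer values. The cause of the lost calls was not tested for any alternative. ScsbetaG rests on 1 bright probe set, and 3 of the 8 genes are not analysed here.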
